A study of Mus musculus with 141 samples.

Results

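The enzymes of xenobiotic metabolism were followed across single epithelial cells of 1 mouse lung. They were the genes whose symbols start with Cyp, Fmo or Ces followed by a digit, with Aldh, Gst, Mgst, Ugt1, Ugt2, Cbr or Sult, and that had at least 1 read in 3 of the deposited cells. The rule gave 81 of 17136 genes. These were 29 cytochromes P450 (Cyp), 5 flavin monooxygenases (Fmo), 16 aldehyde dehydrogenases (Aldh), 19 glutathione transferases (Gst), 3 microsomal glutathione transferases (Mgst), 4 carboxylesterases (Ces), 3 carbonyl reductases (Cbr) and 2 sulfotransferases (Sult). Of the 92 symbols of these families in the counts, 11 had reads in fewer cells. The 4 members just inside the rule, *Aldh18a1*, *Aldh8a1*, *Cyp4b1-ps1* and *Gstm4*, had 23 to 307 reads in 3 cells, and those just outside had 24 to 599 reads in 2 cells, among them *Cyp1b1*. *Ugt1a6a* had no read, so the UDP-glucuronosyltransferases (Ugt) had no member.

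Cells make foreign and endogenous lipophilic compounds soluble in stages. In phase I, P450s and flavin monooxygenases oxidise the compound, carboxylesterases hydrolyse it, and aldehyde dehydrogenases and carbonyl reductases convert the resulting aldehydes and ketones. In phase II, glutathione transferases and sulfotransferases couple it to a water-soluble group. In the lung the pathway is best known from club cells, the secretory cells of the airway, whose P450s can turn inhaled compounds into toxic products.

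The cells came from an ACID;R26tdTomato mouse of strain 129SV, a male aged 4 months. ACID is a knock-in of Cre recombinase and the fluorescent protein DsRed at the *Aqp5* locus, and with the second allele, a floxed stop in front of tdTomato at ROSA26, both heterozygous, it is designed to mark cells that have at some time expressed *Aqp5*, a water channel of type 1 cells. Cells that were CD31- CD45- E-cadherin+ tdTomato+ were sorted and captured 1 per site on a microfluidic chip, and all carry the label of alveolar type 1 cells. There was 1 condition and no cell without the alleles, no treated animal and no second animal, so nothing here separates an effect of the alleles or of the sort from the cells' own levels.

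The deposited cells were classed by their level of 3 genes in CPM, the reads of a gene scaled to an equal total for every cell or class. Type 1 cells, the thin cells of gas exchange, had at least 5000 CPM of *Ager*, type 2 cells, which make surfactant, at least 8000 CPM of *Sftpc*, and the rest were split into Scgb1a1-high cells, with at least 50000 CPM of the club cell secretoglobin *Scgb1a1*, and Scgb1a1-low cells. Cells with a mitochondrial share of reads of 0.15 or more were set aside, which removed 49 cells and left 92: 45 type 1, 11 type 2, 12 Scgb1a1-high and 24 Scgb1a1-low. The classes did not share cells. The cuts fell into gaps for *Ager*, with no kept cell between 1402 and 9335 CPM, and for *Scgb1a1*, with none between 41995 and 174821 CPM, whereas 3 kept cells had between 4000 CPM of *Sftpc* and its cut, the highest of them 7774 CPM. The type 1 markers fixed for the check were high in 45 of 45 type 1 cells, and those of type 2 cells in 10 of 11 type 2 cells, whereas the club cell list beyond *Scgb1a1* was high in only 6 of the 12 Scgb1a1-high cells, which are therefore named by their gene. Of the Scgb1a1-low cells, 12 were high in the ciliated cell list, 6 in the basal cell list and 6 in neither, and 2 of those 6 were high in the fibroblast list. The type 1 list was also high in 2 Scgb1a1-low cells, 1 of the basal list and 1 of neither list, and in none of the 11 type 2 and 12 Scgb1a1-high cells, although the label of type 1 cell covers all of them.

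Total reads per kept cell ranged from 142003 to 2170760. A single mouse gives 1 sample, so cells served as no replicates and the comparisons carry neither tests nor p-values. A class level is the CPM of a gene's reads pooled over the class, followed in parentheses by its exact Poisson 95% interval. The intervals hold counting error alone, since reads counted without molecular identifiers include PCR copies. A gene was called higher or lower in a class than in type 1 cells where it reached 10 CPM in 1 of the 2 classes and its log2 ratio, with 1 CPM added to both, was at least 2 in size, also without the cell of the higher class that held most of its reads. All 3 comparisons use the same 45 type 1 cells. CPM are not scaled to gene length, so levels are compared between classes of cells within a gene and not between genes.

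The share of all reads that fell on the 81 members was higher in both *Scgb1a1* classes than in the alveolar ones. It was 0.613% in type 1 cells, 0.856% in type 2 cells, 4.06% in Scgb1a1-high cells and 4.84% in Scgb1a1-low cells. In single cells it ran from 0.128% to 1.30% in type 1 cells (median 0.588%) and from 0.483% to 1.43% in type 2 cells (median 0.909%). It ran from 2.45% to 5.14% in Scgb1a1-high cells (median 4.21%) and from 1.11% to 9.54% in Scgb1a1-low cells (median 5.33%). No Scgb1a1-high cell fell into the range of either alveolar class, whereas the lowest Scgb1a1-low cell lay inside both. Few members carried these shares. Most member reads of type 2 cells were of *Cbr2*, with 42224 reads, and without it the share was lower in type 2 than in type 1 cells. In both *Scgb1a1* classes *Cbr2* and *Cyp2f2* together held most of the member reads. With each cell thinned to 90000 reads, the median number of members with a read was 12 in type 1, 12 in type 2, 25.5 in Scgb1a1-high and 18.5 in Scgb1a1-low cells, against 16, 19, 31.5 and 22 without thinning.

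**Figure D1:**
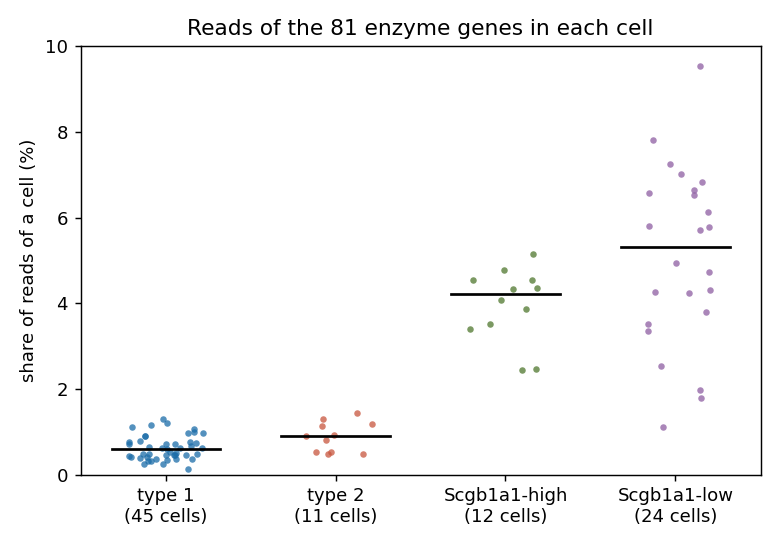
Share of a cell's reads that fall on the 81 members, in percent on the vertical axis, for each kept cell of the 4 classes on the horizontal axis. Each point is 1 cell and each bar the class median. The medians are 0.588% in type 1, 0.909% in type 2, 4.21% in Scgb1a1-high and 5.33% in Scgb1a1-low cells, and the Scgb1a1-high cells lie above all alveolar cells.

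The P450 with most reads was *Cyp2b10* in type 1 cells and *Cyp2f2* in the 3 other classes. *Cyp2b10* took 59.5% of the P450 reads of type 1 cells, and *Cyp2f2* 43.5% in type 2, 91.6% in Scgb1a1-high and 67.4% in Scgb1a1-low cells. The summed P450 level was 3972 CPM (3946 to 3998) in type 1 cells, 138.3 CPM (129 to 148) in type 2 cells, 12699 CPM (12633 to 12765) in Scgb1a1-high cells and 9096 CPM (9049 to 9143) in Scgb1a1-low cells. Of the 63 members that reached 10 CPM in some class, 11 were highest in type 1 cells, 4 in type 2 cells, 19 in Scgb1a1-high cells and 29 in Scgb1a1-low cells. Those highest in type 1 cells were *Cyp2b10*, *Cyp4b1*, *Gstt1*, *Aldh3a2*, *Sult1a1*, *Gstk1*, *Cyp4f13*, *Cyp20a1*, *Aldh7a1*, *Cyp2b9* and *Cyp2b13*. The other 18 members stayed below 10 CPM in every class, and 1 of them, *Cyp4b1-ps1*, had no read in a kept cell.

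The 2 P450s and the carbonyl reductase that carry the contrasts lie at *Cyp2b10* (chr7:25897620-25926624, + strand), *Cyp2f2* (chr7:27119909-27133660, + strand) and *Cbr2* (chr11:120729489-120732114, - strand), all in GRCm38 with the GENCODE vM21 gene models. Their sequences just upstream of the start, from RefSeq on GRCm38.p6, are shown side by side. The genes are one high in type 1 cells, one high in both *Scgb1a1* classes and one high in all classes but type 1. The sequences cover chr7:25897408-25897619 (+), chr7:27119705-27119908 (+) and chr11:120732115-120732271 (-). *Gsta3*, at chr1:21240335-21240584 (+), is added as an example with the second motif. Capitals mark the core letters of the xenobiotic response element, GCGTG, or of the antioxidant response element, TGACNNNGC, on either strand.
Cyp2b10: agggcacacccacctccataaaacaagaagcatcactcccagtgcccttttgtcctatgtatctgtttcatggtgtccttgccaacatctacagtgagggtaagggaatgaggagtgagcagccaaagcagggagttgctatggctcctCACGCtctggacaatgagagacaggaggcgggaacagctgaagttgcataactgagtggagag
Cyp2f2: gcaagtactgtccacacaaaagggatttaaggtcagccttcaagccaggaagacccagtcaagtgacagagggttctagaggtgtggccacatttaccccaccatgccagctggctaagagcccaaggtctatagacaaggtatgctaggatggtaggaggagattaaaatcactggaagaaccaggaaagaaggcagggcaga
Cbr2: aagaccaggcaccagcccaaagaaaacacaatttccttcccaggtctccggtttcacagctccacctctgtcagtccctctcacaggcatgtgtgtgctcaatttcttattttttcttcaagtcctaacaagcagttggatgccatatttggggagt
Gsta3: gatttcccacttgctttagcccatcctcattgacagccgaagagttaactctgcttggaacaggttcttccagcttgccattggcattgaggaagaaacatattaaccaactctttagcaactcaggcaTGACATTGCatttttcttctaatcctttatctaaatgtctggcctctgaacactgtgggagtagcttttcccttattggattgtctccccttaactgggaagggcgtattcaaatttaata

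The xenobiotic core occurred on the reverse strand 63 bases before the end of the *Cyp2b10* stretch and not in those of *Cyp2f2* and *Cbr2*. The antioxidant core stood in the *Gsta3* stretch, and none of the 4 stretches held both motifs. Over the 250 bases before the start, GCGTG was present in 17 of the 64 members with a promoter in the table (26.6%) and in 28.2% of 27025 promoters of all genes, and TGACNNNGC in 4 of 64 (6.25%) and in 10.2% of all. A match describes the letters and not a bound site.

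*Cyp2b10*, a P450 known in the liver as the classical target of the receptor that responds to phenobarbital, was highest in type 1 cells. It had a read in 45 of 45 type 1 cells, with a lowest value of 2.63, a median of 2075 and a highest of 8377 CPM, and 40 of them had 100 CPM or more. The summed level was 2362 CPM (2342 to 2382) in type 1 cells and 8.65 CPM (6.53 to 11.2) in type 2 cells, where single cells ran from 0 to 51.7 CPM with a median of 3.45. Of the 45 type 1 cells 41 lay above the highest type 2 cell, so the classes overlapped in only 4 type 1 cells. The level in type 2 cells was 273-fold lower (210 to 362). In Scgb1a1-high cells *Cyp2b10* reached 84.2 CPM (78.9 to 89.8), with single cells from 0 to 469 and a median of 2.53 CPM. In Scgb1a1-low cells it reached 320.5 CPM (312 to 329), with single cells from 0 to 2960 and a median of 3.71 CPM. The log2 ratios to type 1 cells were -7.94 in type 2, -4.79 in Scgb1a1-high and -2.88 in Scgb1a1-low cells, all called lower, and the spread within the Scgb1a1-low class is taken up with its subsets.

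*Cyp4b1* (chr4:115624725-115647723, - strand), a P450 of lung that oxidises fatty acids and plant toxins, had the same order of classes. Single type 1 cells ran from 0 to 4500 CPM with a median of 969, and 44 of 45 had a read. The class level was 1307 CPM (1293 to 1322) in type 1, 21.3 CPM (17.9 to 25.2) in type 2, 238 CPM (229 to 247) in Scgb1a1-high and 391 CPM (382 to 401) in Scgb1a1-low cells. One type 2 cell held 94.9% of the type 2 reads. The log2 ratio was -5.87 in type 2 and -2.45 in Scgb1a1-high cells, both called lower, and -1.74 in Scgb1a1-low cells, which was not called. Of the 45 type 1 cells, 34 lay above the highest Scgb1a1-high cell and 18 above the highest Scgb1a1-low cell, so these classes overlapped. At 100 CPM, 34 type 1 cells had both *Cyp2b10* and *Cyp4b1*, 6 had *Cyp2b10* alone, 5 had *Cyp4b1* alone and 0 had neither.

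**Figure D2:**
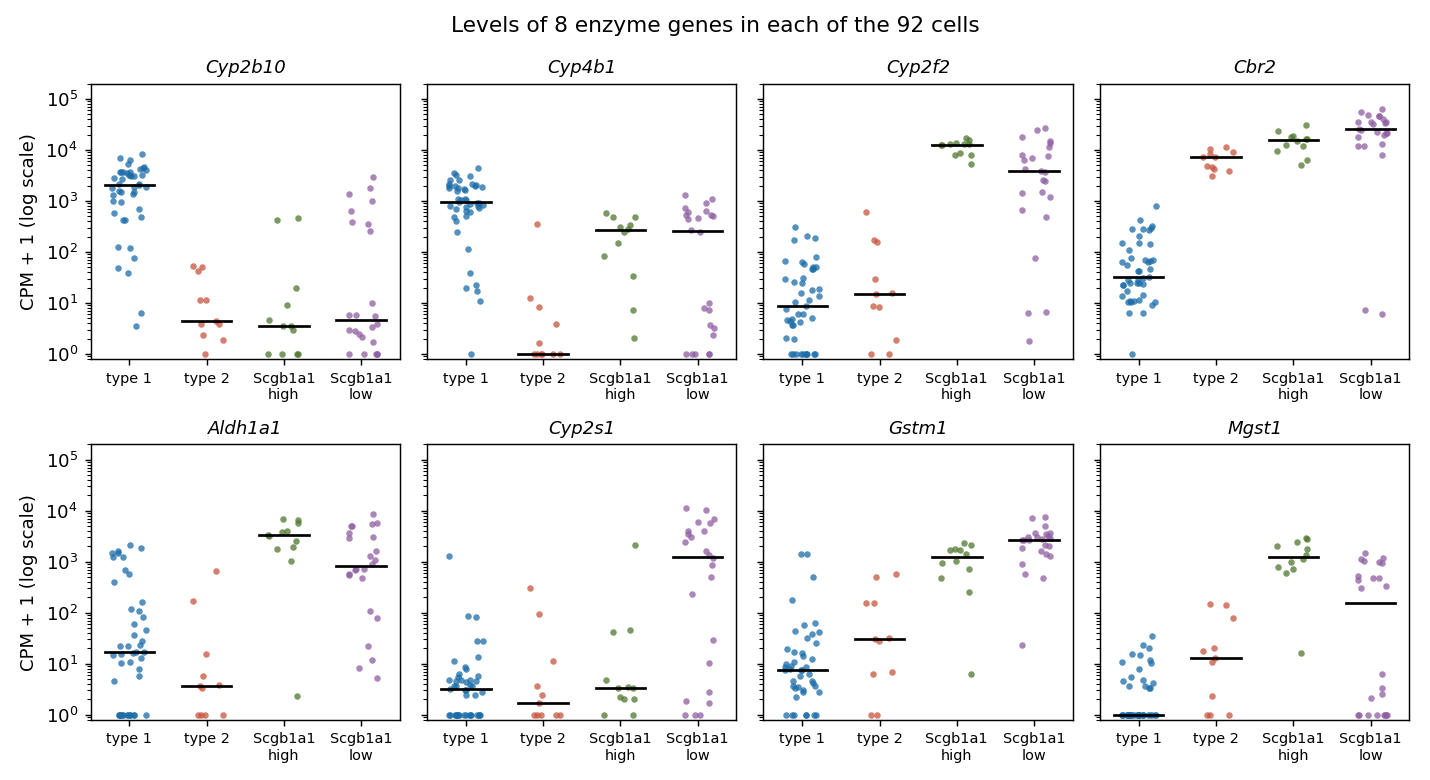
CPM in single cells, on a log axis with 1 CPM added, for the members named in each panel title, with the 4 classes on the horizontal axis. Each point is 1 kept cell and each bar the class median. *Cyp2b10* has a median of 2075 CPM in type 1 cells and below 4 CPM in the other classes, whereas *Cyp2f2* and *Cbr2* have medians of 12618 and 15703 CPM in Scgb1a1-high cells.

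Other members highest in type 1 cells were found in fewer cells. *Sult1a1*, a phenol sulfotransferase, had 110.6 CPM in type 1 cells, 60.2 in type 2 cells, where 1 cell held 99.7% of the reads, 90.1 in Scgb1a1-high cells and 0.0632 CPM in Scgb1a1-low cells. *Gstt1*, a theta-class transferase, had a read in 18 of 45 type 1 cells, with a highest value of 1996 CPM, and a class level of 229 CPM against 158 in type 2, 34.01 in Scgb1a1-high and 94.2 CPM in Scgb1a1-low cells. *Aldh3a2*, the fatty aldehyde dehydrogenase, had 174 CPM in type 1, 96.6 in type 2, 26.0 in Scgb1a1-high and 43.8 CPM in Scgb1a1-low cells. Of these, *Gstt1* and *Aldh3a2* were called lower in Scgb1a1-high cells and *Sult1a1* in Scgb1a1-low cells, and none was called in type 2 cells. The calls of *Gstt1* and of *Aldh3a2* were each lost in 6 of 14 alternatives. The kappa-class transferase *Gstk1* and the fatty acid hydroxylase *Cyp4f13* had 86.6 and 67.3 CPM in type 1 cells and 0.253 and 0.0632 CPM in Scgb1a1-low cells.

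In type 2 cells the members that differed were mostly lower than in type 1 cells, as were the genes at large, with 1 large exception. Of 38 members that reached 10 CPM in either class, 4 were called higher (10.5%, against 4.25% of the 8796 genes tested) and 12 lower (31.6%, against 28.4%), and 22 were not called. The median log2 ratio was -0.51 over the members and -1.10 over all genes. The share called lower was near that of all genes. The type 2 class has fewer cells than the type 1 class, and the part of this in the shares was not tested.

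*Cbr2*, a carbonyl reductase of lung that reduces ketones and quinones, was the exception. Single type 2 cells ran from 3158 to 11373 CPM with a median of 7412, and single type 1 cells from 0 to 800 CPM with a median of 31.02. All 11 type 2 cells lay above every type 1 cell. The class levels were 6519 CPM (6457 to 6582) and 83.7 CPM (80.01 to 87.5), a log2 ratio of 6.27. The calls of the 3 other higher members depended on the processing, since of 15 alternatives 8 ended that of *Aldh9a1*, 3 that of *Aldh1a7* and 4 that of *Mgst1*. *Aldh9a1*, which works in carnitine synthesis, had 148 CPM in type 2 and 24.99 CPM in type 1 cells, with a read in 4 of 11 and 5 of 45 cells. *Aldh1a7*, a close relative of the retinaldehyde dehydrogenase *Aldh1a1*, had 74.3 and 1.86 CPM, and the microsomal transferase *Mgst1* 33.04 and 3.42 CPM. *Aldh1l1*, a folate enzyme, had 156 CPM in type 2 cells with 99.5% of it in 1 cell and was not called.

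No P450 was called higher in type 2 cells, and the 12 lower members included 6 of the 10 P450s tested (60%, against 28.4% of all genes). Next to *Cyp2b10* and *Cyp4b1* they held *Aldh1a1* at 36.9 CPM against 321 CPM in type 1 cells, with a log2 ratio of -3.09. Within chip columns 1 to 10 the ratio was -1.20 and not called, within columns 11 to 20 it was -5.28, and 4 of 15 alternatives in all ended the call. In type 1 cells *Aldh1a1* was uneven, since single cells ran from 0 to 2174 CPM, the median was 15.8 CPM and 13 of 45 cells had 100 CPM or more. One type 2 cell held 79.5% of the type 2 reads. *Gstm2*, a mu-class transferase, had 3.55 CPM in type 2 and 112.5 CPM in type 1 cells, and *Gstz1*, which also serves tyrosine breakdown, 0.463 and 81.8 CPM. Only 7 of 45 type 1 cells lay above the highest type 2 cell for *Gstm2*, and 6 of 45 for *Gstz1*. *Cyp4f13*, *Cyp20a1*, *Aldh7a1*, *Aldh6a1*, *Gsto1*, *Cyp2b9* and *Cyp2b13* complete the list. The calls of *Cyp2b9* and *Cyp2b13*, which count among the 6 P450s, are held as uncertain below. *Aldh6a1* had no read in type 2 cells, and it was at least 78.1-fold lower there when set against 3 counts over the class.

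In Scgb1a1-high cells the members were higher than in type 1 cells in most families. Of 53 members tested, 24 were called higher (45.3%, against 5.58% of 9066 genes) and 11 lower (20.8%, against 27.7%), and 18 were not called. The median log2 ratio was 3.47 over the members and -1.24 over all genes. *Scgb1a1* alone took 30.8% of the reads of these cells. With the secretory and mitochondrial genes left out of the totals 28 members were higher and 6 lower, and with TMM factors 27 were higher and 6 lower, while the median over all genes moved to -0.43 and -0.64. Under both scalings the lower calls of *Cyp4b1*, *Gstt1*, *Aldh3a2* and *Mgst3* in these cells were lost. In type 2 cells the same scalings moved the median over all genes to -0.67 and -0.90 and in Scgb1a1-low cells to 0.26 and -0.08.

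*Cyp2f2*, the P450 of club cells that activates naphthalene, separated the single cells completely from the alveolar classes. Its single Scgb1a1-high cells ran from 5227 to 16990 CPM with a median of 12618. Single type 1 cells ran from 0 to 315 CPM with a median of 7.63, and single type 2 cells from 0 to 615 CPM with a median of 14.2. Each of the 12 Scgb1a1-high cells lay above every alveolar cell. The class level was 11627 CPM (11564 to 11691) against 35.2 CPM (32.8 to 37.7) in type 1 cells, a 330-fold difference with a log2 ratio of 8.33. In type 2 cells the level was 60.2 CPM (54.4 to 66.5), a log2 ratio of 0.76 that was not called.

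*Cbr2* was at 16886 CPM (16810 to 16962) in Scgb1a1-high cells, with single cells from 5129 to 30850 CPM, and again each of the 12 cells lay above every type 1 cell. *Aldh1a1*, which makes retinoic acid from retinaldehyde, had 3156 CPM (3123 to 3189), with single cells from 1.38 to 7016 CPM and a median of 3297 CPM. *Mgst1*, a membrane-bound transferase that protects against lipid peroxides, had 1767 CPM (1742 to 1792), with single cells from 15.4 to 2982 CPM. The log2 ratios to type 1 cells were 7.64, 3.29 and 8.65. No type 1 cell had 100 CPM of *Mgst1*, whereas 13 had 100 CPM or more of *Aldh1a1* and overlapped the Scgb1a1-high cells.

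Among the soluble glutathione transferases 6 of 15 tested were called higher and 1 lower in Scgb1a1-high cells. *Gstm1*, of the mu class, had 1122 CPM (1102 to 1141) against 79.6 CPM (75.996 to 83.3) in type 1 cells, where 1 cell held 51.3% of the reads. *Gsto1*, of the omega class, had 822 against 35.8 CPM, and was uneven, with a read in 8 of 12 cells. The alpha-class *Gsta3* and *Gsta4*, the latter known for conjugating products of lipid peroxidation, had 331 and 338 CPM against 1.34 and 2.16 CPM. *Gstm2* had 605 against 112.5 CPM. The theta-class *Gstt3* had 137.01 against 0.389 CPM, whereas *Gstt1* of the same class was the 1 called lower.

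The smaller phase I families followed the same direction. All 3 carboxylesterases tested were called higher, led by *Ces1d*, a lipid and ester hydrolase, at 536 CPM (523 to 550) against 69.2 CPM (65.9 to 72.7). Among the flavin monooxygenases *Fmo1* and *Fmo2*, the form known from lung, were higher, with 115.6 and 150 CPM in Scgb1a1-high cells and 0.0432 and 0.778 CPM in type 1 cells. The P450s split, with 5 of 13 higher and 5 lower, among the latter *Cyp2b9* and *Cyp2b13*, whose calls are held as uncertain below. Next to *Cyp2f2* the higher ones were the coumarin hydroxylase *Cyp2a5* (117.8 CPM), its near copy *Cyp2a4*, and the fatty acid hydroxylases *Cyp4a12b* (285 CPM, 64.4% in 1 cell) and *Cyp4f15* (108.6 CPM). *Cyp4f15* had no read in type 1 cells and was at least 837-fold higher when set against 3 counts over that class. The aldehyde dehydrogenases split too, with *Aldh1a1*, *Aldh1a7* (254 CPM) and *Aldh3a1* (210 CPM) higher and *Aldh3b1*, *Aldh3a2*, *Aldh7a1* and *Aldh6a1* lower. *Aldh2*, the mitochondrial enzyme that clears acetaldehyde, was not called in any class, with 66.2 CPM in type 1, 116.9 in type 2, 243 in Scgb1a1-high and 295 CPM in Scgb1a1-low cells. The microsomal transferase *Mgst3* was called lower, at 19.1 CPM in Scgb1a1-high against 118.2 CPM in type 1 cells, while type 2 and Scgb1a1-low cells had 83.5 and 124.4 CPM. This *Mgst3* call was lost in 6 of 14 alternatives.

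**Figure D3:**
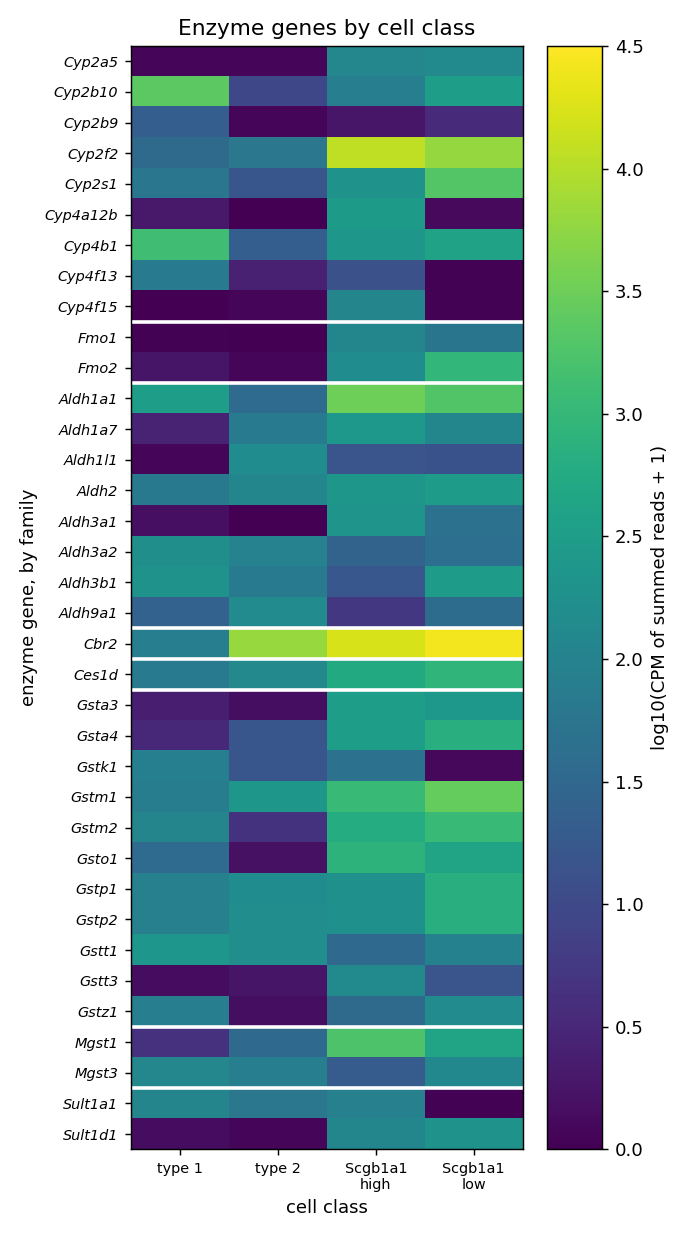
Log10 CPM of members chosen by level, as colours, with 1 member per line and the 4 classes as columns. Brighter colours are higher levels, with 1 CPM added before the log. *Cyp2b10*, at 2362 CPM, and *Cyp4b1*, at 1307 CPM, are brightest in the type 1 column, and most other lines are brightest in 1 of the 2 *Scgb1a1* columns.

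Some reads of *Scgb1a1* and of members high in Scgb1a1-high cells appeared in alveolar cells. *Scgb1a1* itself had 588 CPM in type 1 and 512 CPM in type 2 cells. Per 1000 reads of *Scgb1a1*, *Cyp2f2* had 37.7 reads in Scgb1a1-high cells, 59.8 in type 1 and 117.5 in type 2 cells, and *Mgst1* had 5.73, 5.81 and 64.5. *Cbr2* had 54.7 reads per 1000 in Scgb1a1-high cells but 142 in type 1 and 12726 in type 2 cells. *Aldh1a1* had 10.2, 546 and 72.03. The ratios to *Scgb1a1* thus differed between genes and classes, and the part of free RNA in the alveolar levels was not tested.

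In Scgb1a1-low cells 22 of 55 members tested were called higher than in type 1 cells (40%, against 12.4% of 10273 genes) and 6 lower (10.9%, against 12.9%), and 27 were not called. Of the 6 lower calls, those of *Cyp2b9* and *Cyp2b13* are held as uncertain below. The median log2 ratio was 2.89 over the members and 0.30 over all genes. *Cbr2* reached 26688 CPM (26608 to 26769), with single cells from 5.09 to 64148 CPM and a median of 25657, and 22 of 24 cells lay above every type 1 cell. *Cyp2f2* reached 6130 CPM (6091 to 6168), with single cells from 0.791 to 27148 CPM and a median of 3830. The log2 ratios were 8.30 and 7.40, and the wide ranges show that the class is mixed.

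The transferases of this class ran higher than in type 1 cells in 7 of 15 cases and lower in 1. The 7 include both *Gstp1* and *Gstp2*, near copies among which reads may be split, so these calls are not taken as independent. The same holds for the count of all members called higher in this class. *Gstm1* was present in 24 of 24 cells, from 22.6 to 7680 CPM, with a class level of 2681 CPM (2655 to 2706) and a log2 ratio of 5.06. *Gstm2* had 1103 CPM, *Gsta4* 666 CPM, *Gsta3* 251 CPM and *Gsto1* 421 CPM. The pi-class *Gstp1* had 680 CPM (667 to 693) against 90.8 CPM (86.99 to 94.8) in type 1 cells, 151 in type 2 and 181 CPM in Scgb1a1-high cells. The esterase *Ces1d*, at 891 CPM, had a read in 24 of 24 cells. *Sult1d1*, a sulfotransferase of catecholamines, had 196 CPM against 0.432 CPM in type 1 cells, and thus ran opposite to *Sult1a1*.

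The subsets of the Scgb1a1-low cells carried different members. They are described by their cells' high marker list, with 12 cells of the ciliated list, 6 of the basal list and 6 of neither. *Cyp2s1* (chr7:25802475-25816913, - strand), a P450 of epithelia outside the liver, was found in 12 of 12 ciliated-list cells, from 1334 to 11303 CPM with a median of 4033. Its level was 4289 CPM (4240 to 4340) in that subset, 430 CPM (412 to 449) in the basal-list cells and 71.6 CPM (63.7 to 80.1) in the rest. In type 1 and Scgb1a1-high cells *Cyp2s1* had 56.8 and 194 CPM, of which 1 cell held 91.9% and 95.3%. Reads of this gene were thus sparse outside the Scgb1a1-low class.

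Other members high in the ciliated-list cells were *Aldh3b1*, which oxidises lipid aldehydes, and *Gstz1*. *Aldh3b1* had 722 CPM (702 to 743) there against 0.604 and 0.236 CPM in the other subsets, and *Gstz1* 355 CPM against 0 and 1.18 CPM. Both also occurred in type 1 cells, where single cells reached 2635 CPM of *Aldh3b1* and 2616 CPM of *Gstz1*. Of the 24 Scgb1a1-low cells, 1 lay above the highest type 1 cell for *Aldh3b1* and 0 for *Gstz1*. *Cyp2a5* had 342 CPM against 1.01 and 0.236 CPM. It had a read in only 5 of 12 ciliated-list cells, with a median of 0 CPM, and 1 cell held 44.5% of its reads there. *Cyp2b10* belonged to the same group. It had 762 CPM (742 to 784) in the ciliated-list cells and 2.82 (1.54 to 4.73) and 2.13 CPM (0.972 to 4.03) in the others, and the 8 Scgb1a1-low cells with 100 CPM or more of *Cyp2b10* were all of the ciliated list. The type 1 marker list summed to 724 CPM in these 12 cells and to 27200 CPM in type 1 cells.

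The basal-list cells had another set. *Sult1d1* had 591 CPM (570 to 613) there, 0 in the ciliated-list cells and 40.6 CPM in the rest. *Gsto1* had 1059 CPM (1030 to 1088) against 212 and 0 CPM, with 59.9% of the basal-list reads in 1 cell. *Gsta4* had 1294 against 318 and 475 CPM, and *Gsta3* 503 against 0.302 and 348 CPM. *Gsta3* had a read in 3 of 6 basal-list cells and in 4 of 6 of the rest, with 100 CPM or more in 2 and 3 cells. Its median was 0.766 CPM in the basal-list cells and higher in the rest, the reverse of the pooled levels. *Cyp2f2* had 11351 CPM (11258 to 11445) in the basal-list cells, whose 6 cells ran from 3787 to 17941 CPM with a median of 9741. The ciliated-list cells had 2113 CPM, from 5.40 to 6250 CPM. The rest had 6286 CPM, from 0.791 to 27148 CPM with a median of 11102. The order of the basal-list cells and the rest thus differs between pooled level and median. Of the rest, 4 of 6 cells had 100 CPM or more of *Cyp2f2*, and these 6 include the 2 cells high in the fibroblast list. *Scgb1a1* was at 582 CPM in the basal-list cells and 2445 CPM in the ciliated-list cells, so these 2 subsets stood in the opposite order for *Cyp2f2* and *Scgb1a1*.

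*Fmo2* (chr1:162874317-162898726, - strand) was high in the cells of neither list. It was present in 6 of 6 of them, from 225 to 5754 CPM, with a level of 2604 CPM (2556 to 2653). The basal-list cells had 761 CPM and the ciliated-list cells 0.151 CPM, so no reads beyond a single count were found in the latter. A single cell held 71.8% of the reads of the 6 cells, and the level without it was 1087 CPM. These 6 cells include the 2 that are high in fibroblast genes, among them the cell with most *Fmo2* reads. All 6 were caught in chip columns 1 to 10. The part of the fibroblast-high cells in the levels of this subset was not tested. *Cbr2* had 37893 CPM in ciliated-list cells, 23882 in basal-list cells and 12465 CPM in the rest. All 12 and 6 cells of the first subsets had 100 CPM or more, against 4 of 6 in the rest, where 1 cell held 63.3% of the reads and the level without it was 5447 CPM.

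**Figure D4:**
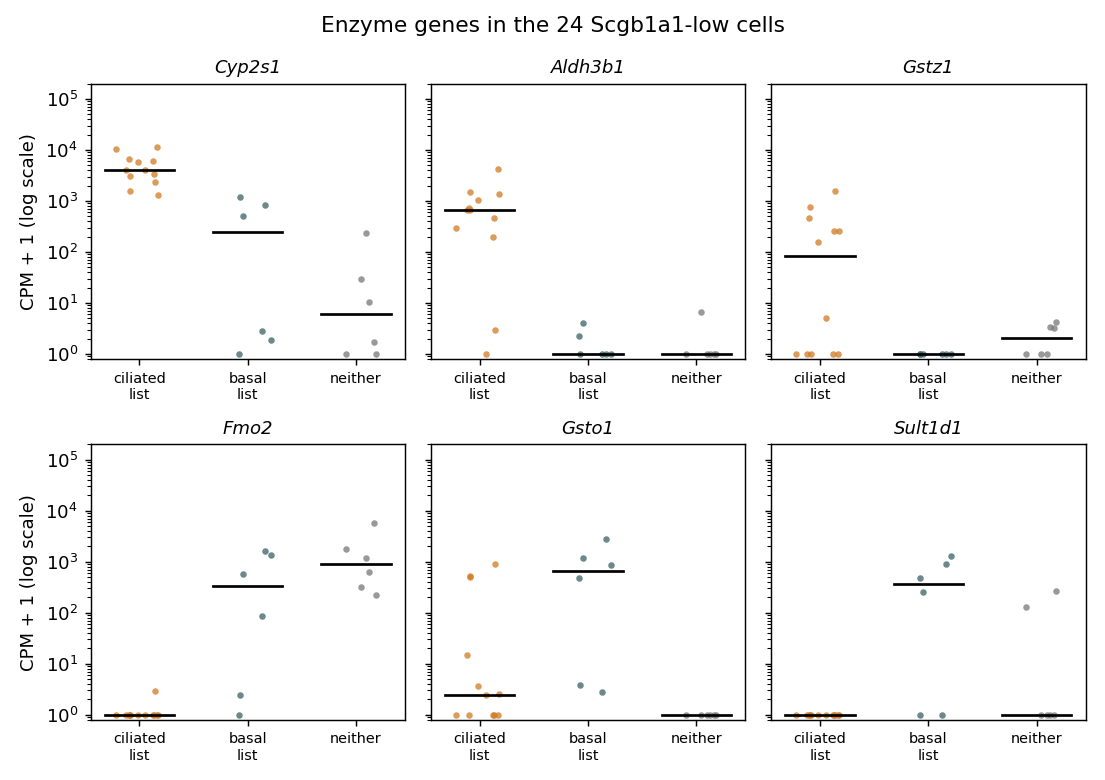
CPM in single Scgb1a1-low cells on a log axis with 1 CPM added, for the members named in the panel titles, split on the horizontal axis by the marker list that was high in the cell. Points are cells and bars subset medians. *Cyp2s1* lies at 1334 CPM or more in all 12 ciliated-list cells, and *Fmo2* at 225 CPM or more in the 6 cells of neither list.

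The P450s of the Cyp2 family with these opposite patterns lie in 1 stretch of chromosome 7. From *Cyp2s1* at chr7:25802475-25816913 it runs through *Cyp2b10*, *Cyp2b13* (chr7:26061497-26096197), *Cyp2b9* (chr7:26173411-26210661), *Cyp2a4* (chr7:26307169-26315088) and *Cyp2a5* (chr7:26835305-26843548) to *Cyp2f2* at chr7:27119909-27133660. Within it *Cyp2s1* had 4289 CPM in ciliated-list cells, *Cyp2b10* 2362 CPM in type 1 cells and *Cyp2f2* 11627 CPM in Scgb1a1-high cells. Neighbouring genes thus had their highest level in different classes.

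Several members have close relatives among which counted reads may be split. *Cyp2b9* and *Cyp2b13* had 9.04 and 8.68 reads per 1000 reads of *Cyp2b10* over the kept cells, and each of the 51 cells with *Cyp2b9* and 49 cells with *Cyp2b13* also had *Cyp2b10*. For *Cyp2b9* the ratio was 9.12 in type 1, 10.6 in Scgb1a1-high and 7.89 in Scgb1a1-low cells, and for *Cyp2b13*, with 18 reads in Scgb1a1-high cells, 8.55, 19.03 and 8.29. Reads of both genes thus followed *Cyp2b10* while its level differed 28.04-fold, and the calls of *Cyp2b9* and *Cyp2b13* as lower are held as uncertain for this reason. Their coding sequences have 86.2% and 87.1% of bases in common with *Cyp2b10*, with longest identical runs of 55 and 86 bases, and neither transcript shares a window of 120 bases with it. The last 60 coding bases, bases 1441 to 1500 of *Cyp2b10* and 1414 to 1473 of *Cyp2b9* in GENCODE vM21, are shown because they show how far the genes differ toward the 3' end, with the 6 differing bases in capitals.
Cyp2b10: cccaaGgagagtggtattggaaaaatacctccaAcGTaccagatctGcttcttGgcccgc
Cyp2b9: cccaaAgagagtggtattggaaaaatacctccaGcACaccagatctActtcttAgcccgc

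For *Gstp1* (chr19:4035407-4037985, - strand) and *Gstp2* (chr19:4040285-4046023, - strand) it is uncertain whether the counts tell the copies apart. Of their windows of 120 bases, 48.6% and 57.4% are shared with transcripts of other genes. *Gstp2* had 1014 reads per 1000 of *Gstp1* over the kept cells, with 1011 in type 1, 1036 in type 2 and 992 in Scgb1a1-high cells. In the 41 cells with at least 100 *Gstp1* reads the ratio of *Gstp2* to *Gstp1* ran from 0.724 to 1.29. The coding sequences are 98.1% identical with an unbroken identical run of 300 bases. The last 60 coding bases, 571 to 630 in both genes, differ at 0 positions and carry no capitals.
Gstp1: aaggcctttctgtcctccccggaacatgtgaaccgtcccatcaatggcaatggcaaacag
Gstp2: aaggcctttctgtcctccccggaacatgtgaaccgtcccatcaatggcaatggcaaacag

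The pairs *Cyp2a4* and *Cyp2a5* and *Cyp4a12a* and *Cyp4a12b* are 98.4% and 98.5% identical, and the first of each had 87.3 and 29.4 reads per 1000 of the second. *Aldh1a7* and *Aldh1a1* are 91.6% identical, but here the ratio moved with the class. *Aldh1a7* had 5.79 reads per 1000 of *Aldh1a1* in type 1, 80.4 in Scgb1a1-high, 60.8 in Scgb1a1-low and 2013 in type 2 cells. Of the 81 members, 21 share a window of 120 bases with another gene's transcript and 60 do not, and 18 overlap an exon of another gene, among them *Cyp2f2* with 13.5% of its exon bases.

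**Figure D5:**
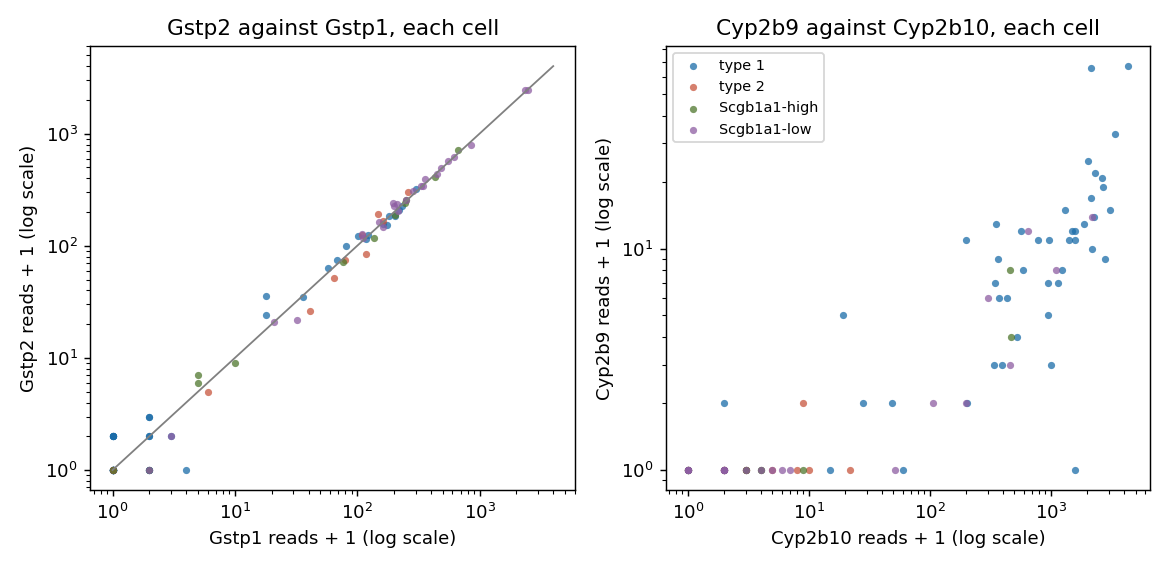
Reads of *Gstp2* (vertical) against *Gstp1* (horizontal) in the left panel and of *Cyp2b9* against *Cyp2b10* in the right panel, on log axes with 1 read added, with 1 point per kept cell coloured by class. The grey line marks equal reads. *Gstp2* follows *Gstp1* at about 1014 reads per 1000, and *Cyp2b9* follows *Cyp2b10* at about 9.04 reads per 1000.

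Of a list of 48 other genes of the pathway (receptors and their partners, electron donors, glutathione and sulfate supply, alcohol and amine oxidases, transporters), 40 were in the counts. In type 2 cells 1 of 29 tested was higher and 3 lower, in Scgb1a1-high cells 4 of 33 were higher and 1 lower, and in Scgb1a1-low cells 6 of 33 were higher and 2 lower. Over all genes tested the shares called higher and lower were 4.25% and 28.4%, 5.58% and 27.7%, and 12.4% and 12.9%. *Papss2*, which makes the sulfate donor of the sulfotransferases, was called lower in each class than in type 1 cells. It had 123.4 CPM in type 1 cells, with a read in 11 of 45 cells, and 0, 0.445 and 11.8 CPM in type 2, Scgb1a1-high and Scgb1a1-low cells. The exporter *Abcc5* had 239 CPM in type 1 cells and was called lower in type 2 cells, at 0.618 CPM, and in Scgb1a1-low cells, at 38.1 CPM. *Arnt*, the partner of the aryl hydrocarbon receptor, had 44.9 CPM in type 1 and 2.78 CPM in type 2 cells. It had a read in 11 of 45 and 3 of 11 of these cells, with a median of 0 CPM in both classes. These 3 were the listed genes called lower than in type 1 cells.

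The monoamine oxidase *Maob* was the 1 listed gene higher in type 2 cells, at 253 against 5.10 CPM, with a read in 4 of 11 cells. In Scgb1a1-high cells the aldehyde oxidase *Aox3* (348 against 0.519 CPM), *Maob* (132.65 CPM) and *Gsr*, which recycles glutathione (96.5 against 15.4 CPM), were higher. In Scgb1a1-low cells *Gclm*, a subunit of the glutathione-making ligase (122.9 against 13.96 CPM), and the alcohol dehydrogenase *Adh7* (104.65 against 0.303 CPM) were higher. *Por*, which passes electrons to the P450s of the endoplasmic reticulum, was not called in any class. It had 184 CPM in type 1, 37.8 in type 2, 424 in Scgb1a1-high and 352 CPM in Scgb1a1-low cells. Its lowest level was thus in the class with the lowest summed P450 level. One type 2 cell held 94.7% of the *Por* reads of that class, and the level without it was 2.41 CPM. The log2 ratio of *Por* in type 2 cells was -2.25, and -1.95 without the type 1 cell with the most reads. *Nfe2l2*, the factor known to act on antioxidant response elements, was not called either, with 168, 237, 199 and 209 CPM. *Ahr*, the aryl hydrocarbon receptor, had 8.21, 8.03, 44.6 and 0.0632 CPM in the same order of classes. Reads of *Ahr* were found in 4 of 45, 1 of 11, 7 of 12 and 1 of 24 cells.

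Markers of other cell types were checked in each class. The fibroblast list had no read in type 2 and Scgb1a1-high cells and summed to 375 CPM in Scgb1a1-low cells, and without the 2 cells that carried it 22 members were still called higher and 7 lower there. Of the 8 macrophage markers only *Ptprc* was in the counts, with no read in the kept classes. The type 2 list summed to 7402 CPM in Scgb1a1-high cells, from 1382 to 19748 CPM in single cells, and its part in the members' levels there was not tested. The ciliated list summed to 1413 CPM in type 1 cells (median 1364, highest 5851) without being high in any of them, and it was high in 1 Scgb1a1-high cell. The type 1 list summed to 1067 CPM in Scgb1a1-low cells, 2 of which were high in it. The type 2 list was high in 1 Scgb1a1-high cell and the club list in 1 type 1 and 1 type 2 cell. The part of these in the members' levels was not tested. Endothelial markers summed to 44.8 CPM in Scgb1a1-high cells and to at most 2.28 CPM in the other classes.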

How the data were processed

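Trim Galore, FastQC, HISAT2, featureCounts and GRCm38 are named in the submitters' processing notes. Versions, the annotation and the treatment of reads with several matches are not given in the sources used here. The authors deposited unnormalized read counts per gene for the cells of 1 mouse, and 0 columns were left unused. Total counts per cell were 91402 to 2170760. Classes were set by *Ager*, *Sftpc* and *Scgb1a1* CPM and a mitochondrial share under 0.15, and counts were summed per class. The script was tested on simulated data. The members, gene lists and tests were chosen with earlier results of these data known. A member was named where it reached 100 CPM in a class, led its family, or was among the 5 called members with the highest level in a comparison and direction, and a listed pathway gene where it was among the 3 highest called. Of the genes so chosen, 2 are not reported here. *Por*, *Nfe2l2* and *Ahr*, and members listed only by name, were named after their values were seen. Marker lists covered type 1, type 2, club, ciliated, basal, fibroblast, macrophage and endothelial cells, and a list was high in a cell where at least 0.5 of its genes reached 100 CPM. Copies were compared on GENCODE vM21 transcripts, and promoters were taken from RefSeq (64 of 81 members matched). Doublets had been excluded by the authors under the microscope, and no caller was run. Alternatives changed the cuts, the mitochondrial maximum, the totals (TMM factors of edgeR 4.0.16 in R 4.3.3), the CPM added, the minimum level, the depth and the chip columns. The work ran in Python 3.11.15 with pandas 2.3.3, numpy 2.4.6, matplotlib 3.10.9 and scipy 1.17.1.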

Additional observations from a re-analysis of the deposited data

Results flagged for a closer look

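Both results below come from cells outside the comparisons, those with a mitochondrial share of 0.15 or more, and were taken up because a member reached 100 CPM there while it was under 10 CPM in the kept cells of the same class. *Cyp27a1*, a mitochondrial sterol hydroxylase, had 153.75 CPM (145 to 163) in the 19 removed type 1 cells, with a read in 5 of them, and 65.8 CPM without the cell with the most reads. In the 45 kept type 1 cells it had 7.39 CPM, with a read in 2 cells.

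*Gstt3*, a theta-class transferase, had 157.77 CPM (146 to 170) in the 16 removed type 2 cells, with a read in 4 of them, and 77.7 CPM without the cell with the most reads. In the 11 kept type 2 cells it had 0.772 CPM, with a read in 2 cells. The part of damaged cells in these levels was not tested.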

How the results depend on the processing

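With 1 mouse and 1 condition, no value here has an error between animals. No paired analysis was possible because there is 1 sample. The 4 members higher in type 2 cells became 8 with cuts at 0.5 times their value, 2 with 10 CPM added and 10 without the step that leaves out a cell, and the 12 lower became 7 with 10 CPM added, where the shares of all genes were 4.96%, 2.1%, 14.5% and 11.8%. The 11 members lower in Scgb1a1-high cells became 7 with a mitochondrial maximum of 0.1, 6 with totals without secretory genes, 6 with TMM factors and 5 with 10 CPM added (all genes 23.1%, 22.4%, 23.7% and 12.3%), while the 24 higher ranged from 20 to 30. *Cyp4b1* lost its lower call there with TMM factors (-1.95) and without secretory genes (-1.75). In Scgb1a1-low cells the 22 higher became 14 in the removed cells and 35 without leaving out a cell (all genes 10.2% and 26.5%), and the 6 lower became 3 in chip columns 11 to 20 (all genes 14.1%), where the log2 ratio of *Cyp2b10* was -1.97 (columns 1 to 10, -4.23). Among the called log2 ratios of named members, 4 changed sign. These were *Gstm2* in type 2 cells with lower cuts (1.42), *Cyp4f13* in removed type 2 (1.24) and Scgb1a1-low cells (1.498), and *Fmo2* in removed Scgb1a1-low cells (-2.96). On thinning, 41 of 148 shares of cells with a read moved. The removed Scgb1a1-high class had 1 cell and gave no value. The comparison without the 2 fibroblast-high cells was added after seeing the data. The causes of these changes were not tested.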

Other observations

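Several leading members were also measured in the removed cells. *Cyp2b10* had a read in 19 of 19 removed type 1 cells, from 1.54 to 4796 CPM with a median of 926, and a class level of 1314 CPM (1289 to 1340). In the 16 removed type 2 cells it had 3.18 CPM (1.74 to 5.34). *Cbr2* had 3232 CPM (3179 to 3285) in the removed type 2 cells, with a read in 16 of 16, and 162 CPM (154 to 171) in the removed type 1 cells. *Cyp2s1* had 1874 CPM (1831 to 1918) in the 13 removed Scgb1a1-low cells and 20.6 CPM (17.5 to 23.9) in the removed type 1 cells. The order of classes differed for *Cyp2f2*, which had 91.1 CPM in removed type 1, 54.8 in removed type 2 and 4968 CPM in removed Scgb1a1-low cells and 1141 CPM in the 1 removed Scgb1a1-high cell, and for *Fmo2*, which had 47.5 CPM in removed type 1 and 5.21 CPM in removed Scgb1a1-low cells. The members took 0.490% of the reads of removed type 1 cells, 0.498% of removed type 2 cells and 2.53% of removed Scgb1a1-low cells.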
